A study of Trachinotus blochii with 22 samples.

Results

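Liver miRNAs of golden pompano (Trachinotus blochii) sampled 3 h into rapid reoxygenation were compared with those of fish sampled at the 0 h time point of hypoxia. Each group held 3 small RNA libraries, out of 22 libraries in 8 groups of normoxia, hypoxia, rapid reoxygenation and gradual reoxygenation. Entries of the deposited table were compared if they reached at least 1 CPM (the reads of an entry, scaled to the same total in every library) in at least 2 of the 6 libraries. Rows with identical values in every library counted once. This left 542 of the 1400 distinct rows, from a table of 2108 rows, and 23 of the 542 were miRNAs predicted by the authors. At the edge of the filter, the second-highest level was 1.01 CPM for ssa-miR-301a-5p, which was kept, and 0.978 CPM for hsa-miR-106a-5p, which was not.

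Both groups had been under hypoxic stress, per the series' description, and the rapid group was then returned quickly to oxygen. No hypoxia group was sampled at 3 h, so the return of oxygen and the time passed cannot be told apart. The starting point of the hours, the oxygen levels and the number of fish behind a library are not stated in the labels, nor are strain, age or pooling. The p-values therefore cover only the spread from library to library, part of which may be technical. All samples are labelled liver. In such bulk tissue, fewer cells of a type and less RNA per cell cannot be told apart.

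A miRNA is a short RNA, cut from a hairpin precursor, that guides silencing proteins to messenger RNAs and lowers their translation and stability. Either arm of the hairpin can be loaded, and the arms are written 5p and 3p. When oxygen is low, hypoxia-inducible factors switch on a set of genes that in mammals includes the gene of miR-210, and in zebrafish the pair miR-462 and miR-731. When oxygen returns, mitochondria of the liver release reactive oxygen species, and the transcription factor NRF2, held back by KEAP1, drives the antioxidant response. The entry names carry the prefix of the species in which the sequence was first listed (dre for zebrafish, hsa for human), so a name such as hsa-miR-24-3p here stands for pompano reads assigned to that sequence. Similar entries can take the same reads, and the 542 entries formed 371 groups once those within 0.2 log2 of each other in every library were joined.

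The 6 libraries held 24.8 to 32.1 M assigned reads, summed over entries, so a read taken by similar entries can count more than once. With these totals 1 read was worth 0.0312 to 0.0404 CPM, and a count of 3 reads, used as the floor, 0.0936 to 0.121 CPM. Intervals and floors drawn from reads cover counting error only. The most abundant entry took 7.41 to 9.35% of the summed values of each library. Liver identity was checked by miR-122, the defining miRNA of hepatocytes: its 15 entries, which share reads, together held 34.7 to 41.9% of the values at hypoxia 0 h and 39.8 to 43.5% at rapid reoxygenation 3 h. Rapid reoxygenation library 3 lay farther from the median library than the other 5 (root mean square difference 0.786 on the log2 scale), and 1 library of normoxia 0 h, which enters only the shared estimate of the spread, lay farther still at 1.35. Library 1 of gradual reoxygenation 3 h (0.85), of gradual reoxygenation 12 h (0.83) and of rapid reoxygenation 12 h (0.80) also lay farther than rapid library 3.

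No miRNA passed the test between rapid reoxygenation 3 h and hypoxia 0 h. With limma on log2(CPM + 1) and Benjamini-Hochberg adjustment, 0 of 542 entries had an adjusted p under 0.05 (0%), and edgeR's quasi-likelihood test on the recovered whole reads also called 0. At an unadjusted p under 0.05 limma gave 14 entries (2.58%), 11 of them higher (2.03%) and 3 lower (0.554%) at rapid reoxygenation 3 h, and edgeR gave 22 (4.06%). DESeq2 on the same reads called 7 of 535 entries (1.31%), 6 higher and 1 lower, with 35 at an unadjusted p under 0.05 (6.54%). Those 7 are dre-miR-30a-3p, both entries of miR-30a-5p, 3 entries of miR-10 and miR-10a, and the predicted novel_487, and their levels are given below. Similar entries among the 7 can take the same reads, so the 7 are not separate measurements. The median log2 difference over all entries was -0.02 and the median size of a difference was 0.22, against a median standard error of 0.33.

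The data bound the size of the difference between the groups for part of the miRNAs. For 298 of 542 entries (55%) the 95% confidence interval of the log2 difference lay wholly between -1 and 1, that is, within a doubling or halving on the log2(CPM + 1) scale. Among the 317 entries with a mean of at least 10 CPM, 177 (55.8%) had such an interval. A difference of more than 1 on the log2 scale was seen in 19 of 542 entries (3.51%) and in 8 of the 317 (2.52%). Of these 8, 7 are entries of miR-10, miR-10a and miR-30a, and the other is ssa-miR-194b-5p. In 255 entries (47%) the difference was above 0 and in 287 (53%) below.

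**Figure D1:**
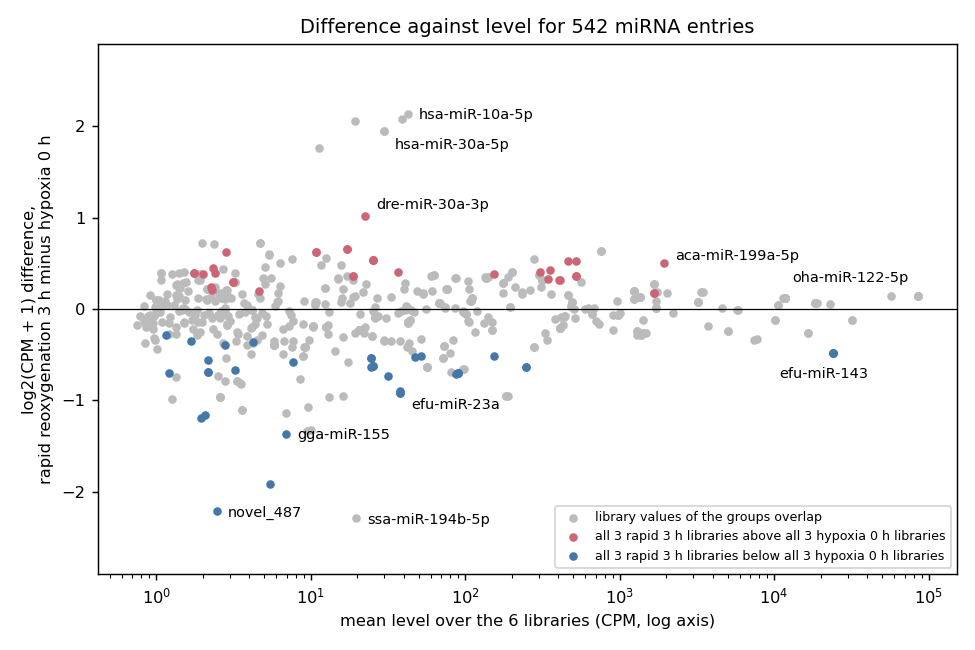
Difference between rapid reoxygenation 3 h and hypoxia 0 h on the log2(CPM + 1) scale (vertical axis) against the mean level over the 6 libraries in CPM (horizontal log axis), 1 point per tested entry, in red or blue where all 3 rapid libraries lie above or below all 3 hypoxia libraries and in grey where the groups overlap. Most of the 542 points lie close to 0, with a median size of 0.22, and the entries far from 0 are few.

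Levels of the 3 libraries of each group did not overlap for 71 of 542 entries (13.1%), 35 higher (6.46%) and 36 lower (6.64%) at rapid reoxygenation 3 h. An exact permutation test of 3 against 3 cannot go below p = 0.1 for any of them. With random labels a share of 0.1 of the entries would be expected to separate, so 13.1% is near that share. Similar entries also separate together, so the count does not show a difference between the groups. The 35 higher entries carry 18 family names and differed by 0.18 to 1.02 on the log2 scale, with a median of 0.39. The 36 lower entries carry 25 family names and differed by -2.21 to -0.28, with a median of -0.64. Most entries described next come from these sets, and none of them passed limma after adjustment over all 542 entries.

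The higher entry with the smallest p was dre-miR-30a-3p, the 3p arm of a miR-30 precursor. Its levels were 13.7, 15.5 and 13.5 CPM at hypoxia 0 h and 24.1, 26.7 and 41.3 CPM at rapid reoxygenation 3 h. The groups did not overlap, and library 3 was the highest. The log2 difference was 1.02 ± 0.23 (SE, n = 3 per group; limma adjusted p = 0.0743). For dre-miR-30a-3p the adjusted p under the alternatives ranged from 0.00334, with DESeq2, to 0.884. In the other 16 libraries dre-miR-30a-3p lay between 16.1 and 27.7 CPM, so hypoxia 0 h was lower than every other library of the series. The more abundant hsa-miR-30a-3p, listed with the same arm, stood at 674 ± 105 CPM at hypoxia 0 h and 647 ± 87.5 CPM at 3 h (SD, n = 3), a log2 difference of -0.05 ± 0.24 (SE).

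The predicted miRNA novel_487, singled out because it had the smallest p, was low in both groups. It stood at 7.83, 1.94 and 4.66 CPM at hypoxia 0 h and at 0.0315, 0.437 and 0 CPM at rapid reoxygenation 3 h. The lowest 2 rapid libraries lie under their floor of 3 reads. For novel_487 the log2 difference was -2.21 ± 0.47 (SE, limma adjusted p = 0.0743; 0.00687 to 0.70 under the alternatives). At this low level the size depended on the scale, from -0.53 with a pseudocount of 10 to -4.93 with DESeq2 for novel_487. The other 16 libraries spanned 0 to 6.12 CPM, and those of rapid reoxygenation 12 h held 6.12 and 1.57 CPM.

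The entry gga-miR-155, known in mammals from activated lymphocytes and macrophages, was lower at rapid reoxygenation 3 h than at hypoxia 0 h. Its levels were 12.1, 11.9 and 7.49 CPM at hypoxia 0 h and 3.78, 3.96 and 2.53 CPM at 3 h. All 3 hypoxia libraries were above all 3 rapid libraries, and the log2 difference of gga-miR-155 was -1.37 ± 0.47 (SE, limma unadjusted p = 0.0099, adjusted p = 0.981; 0.161 to 0.9997 under the alternatives). Of the other 16 libraries, 14 lay below all 3 hypoxia 0 h libraries for gga-miR-155, and 1 library of normoxia 0 h lay above them at 31.0 CPM. That normoxia library is the one that stands apart from the rest, and its part in the level of miR-155 was not tested.

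Among the higher entries were miRNAs known from vessels and stroma. For aca-miR-199a-5p, which in vertebrates is made together with miR-214 in mesenchymal cells, the levels were 1662, 1489 and 1670 CPM at hypoxia 0 h and 2307, 2046 and 2480 CPM at rapid reoxygenation 3 h. The groups did not overlap, and the log2 difference of aca-miR-199a-5p was 0.50 ± 0.21 (SE, limma unadjusted p = 0.0294, adjusted p = 0.981). Of the other 16 libraries, 13 lay above all 3 hypoxia 0 h libraries for aca-miR-199a-5p and 1 lay below them. The 3p entry gga-miR-199-3p overlapped between groups, with a log2 difference of 0.15 ± 0.21 (SE). The cluster partner cgr-miR-214-3p had the opposite sign, with 82.4 ± 13.2 CPM at hypoxia 0 h and 63.5 ± 21 CPM at 3 h (SD, n = 3) and overlapping groups. The levels of hsa-miR-221-5p, from a cluster shared with miR-222 that acts in endothelium and on cell cycle inhibitors, were 19.3, 20.3 and 21.6 CPM at hypoxia 0 h and 31.3, 31.8 and 27.0 CPM at 3 h. All 3 rapid libraries were higher, by 0.53 ± 0.23 on the log2 scale (SE, limma unadjusted p = 0.0339, adjusted p = 0.981). The partner ola-miR-222 gave 132, 116 and 150 CPM at hypoxia 0 h and 156, 210 and 155 CPM at 3 h, a log2 difference of 0.38 ± 0.30 (SE). For ola-miR-222 the groups were separate by a narrow margin, and the other arm of miR-221, bta-miR-221, overlapped between groups with a log2 difference of 0.37 ± 0.24 (SE). The more abundant gga-miR-222a also overlapped, at 0.35 ± 0.31 (SE), and the low gga-miR-222b-5p was lower at -0.58 with separate groups.

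Other higher entries were hsa-miR-19a-3p, mmu-miR-128-3p and dre-let-7j. For hsa-miR-19a-3p, a member of the miR-17-92 cluster, the levels were 9.11, 10.3 and 5.94 CPM at hypoxia 0 h and 13.3, 14.9 and 11.7 CPM at rapid reoxygenation 3 h, a log2 difference of 0.63 ± 0.26 (SE, limma unadjusted p = 0.0281). The brain-enriched mmu-miR-128-3p stood at 437, 402 and 444 CPM at hypoxia 0 h and at 496, 693 and 675 CPM at 3 h, with rapid library 1 close to the hypoxia range. For this entry 13 of the other 16 libraries lay above all 3 hypoxia 0 h libraries and 3 lay below them. For dre-let-7j, a fish member of the let-7 family of differentiation miRNAs, the spread was small: 451, 481 and 437 CPM at hypoxia 0 h against 597, 568 and 596 CPM at 3 h, a log2 difference of 0.36 ± 0.19 (SE). Of the miRNAs named mainly from fish, dre-miR-460-5p was at 301 ± 13.7 CPM and 405 ± 5.46 CPM (SD, n = 3), a log2 difference of 0.43 ± 0.32 (SE). In abu-miR-722, a miRNA that in zebrafish is known for its target rac2 in neutrophils, the means were 363 ± 15.2 CPM and 453 ± 32.8 CPM. The groups of these entries did not overlap. The SEs are from the fit over all 8 groups, and for dre-miR-460-5p the SD in other groups was wider, at 150 CPM for gradual reoxygenation 3 h.

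Among the lower entries were members of the miR-23, miR-27 and miR-24 cluster, whose genes lie side by side in vertebrates and which in mammals responds to hypoxia. The levels of efu-miR-23a were 45.9, 67.7 and 36.5 CPM at hypoxia 0 h and 24.3, 20.4 and 33.3 CPM at rapid reoxygenation 3 h, a log2 difference of -0.90 ± 0.47 (SE, limma unadjusted p = 0.0707). For hsa-miR-24-3p they were 231, 469 and 228 CPM at hypoxia 0 h and 192, 170 and 201 CPM at 3 h, with hypoxia library 2 far above the rest and a log2 difference of -0.63 ± 0.37 (SE), or -0.29 without that library. An entry of the third cluster member, ccr-miR-27d, stood at 57.8, 60.3 and 49.5 CPM at hypoxia 0 h and 38.4, 36.7 and 40.5 CPM at 3 h. Of the other 16 libraries, 14 lay below all 3 hypoxia 0 h libraries for efu-miR-23a and 1 lay above them. For hsa-miR-24-3p 13 lay below and 0 above, and for ccr-miR-27d 14 below and 0 above. These 3 entries were chosen with their separate groups known, and groups were separate for 13.1% of all entries. Groups overlapped for mdo-miR-24-3p (log2 difference -0.48), dre-miR-24b-3p (-0.45) and cli-miR-23b-3p (-0.22), and other entries of miR-27 overlapped too. The more abundant ola-miR-27d-3p stood at 98.9, 647 and 96.3 CPM at hypoxia 0 h and at 68.1 to 121 CPM at 3 h, a log2 difference of -0.96 ± 0.73 (SE), with hypoxia library 2 above all others. For efu-miR-27b, the most abundant miR-27 entry, the means were 487 ± 123 and 488 ± 38.2 CPM (SD, n = 3), and bta-miR-27a-3p had a positive difference of 0.55 ± 0.42 (SE).

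The miR-143 and miR-145 pair, cut from a shared primary transcript in smooth muscle and stromal cells, was lower in both members. The levels of efu-miR-143, among the most abundant liver entries, were 34859, 26726 and 23097 CPM at hypoxia 0 h and 19865, 22330 and 17796 CPM at rapid reoxygenation 3 h. The log2 difference of efu-miR-143 was -0.48 ± 0.31 (SE, limma unadjusted p = 0.132), or -0.32 without hypoxia library 1. For hsa-miR-145-3p the levels were 38.04, 26.28 and 24.53 CPM at hypoxia 0 h and 20.04, 20.65 and 18.7 CPM at 3 h, and the log2 difference was -0.53 ± 0.37 (SE). Below all 3 hypoxia 0 h libraries lay 12 of the other 16 libraries for efu-miR-143 and 13 for hsa-miR-145-3p, with 1 above for each. The 5p arm, dre-miR-145-5p, had a like difference of -0.54 ± 0.39 (SE), but its groups overlapped. Of the other stromal and vessel miRNAs, cgr-miR-214-3p shared this sign, at -0.41 ± 0.35 on the log2 scale (SE), with overlapping groups. In contrast, miR-199a and miR-221 were higher as above. The endothelial miRNA dre-miR-126a-3p stood at 4604 ± 362 and 4654 ± 533 CPM (SD, n = 3).

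Of the miR-10 family, whose genes sit within the Hox clusters, miR-10b and miR-10d were among the lower entries. The most abundant member, dre-miR-10c-5p, overlapped between groups at 1477 ± 149 and 1356 ± 114 CPM (SD, n = 3), and miR-10a, described below, had a positive difference. The levels of mmu-miR-10b-5p were 98.4, 88.1 and 149 CPM at hypoxia 0 h and 54.4, 70.7 and 76.1 CPM at rapid reoxygenation 3 h, a log2 difference of -0.71 ± 0.41 (SE). For ssa-miR-10d-5p the mean was 39.8 ± 10.2 CPM against 23.2 ± 2.38 CPM (SD, n = 3), a log2 difference of -0.73 ± 0.42 (SE). In efu-let-7c the levels were 195, 160 and 182 CPM against 155, 125 and 99.6 CPM, with a log2 difference of -0.51 ± 0.27 (SE). The low entry ola-miR-135b held 17.9, 6.82 and 3.72 CPM at hypoxia 0 h and 1.92, 1.31 and 0.935 CPM at 3 h, a log2 difference of -1.91 ± 0.91 (SE), with hypoxia library 1 the highest.

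**Figure D2:**
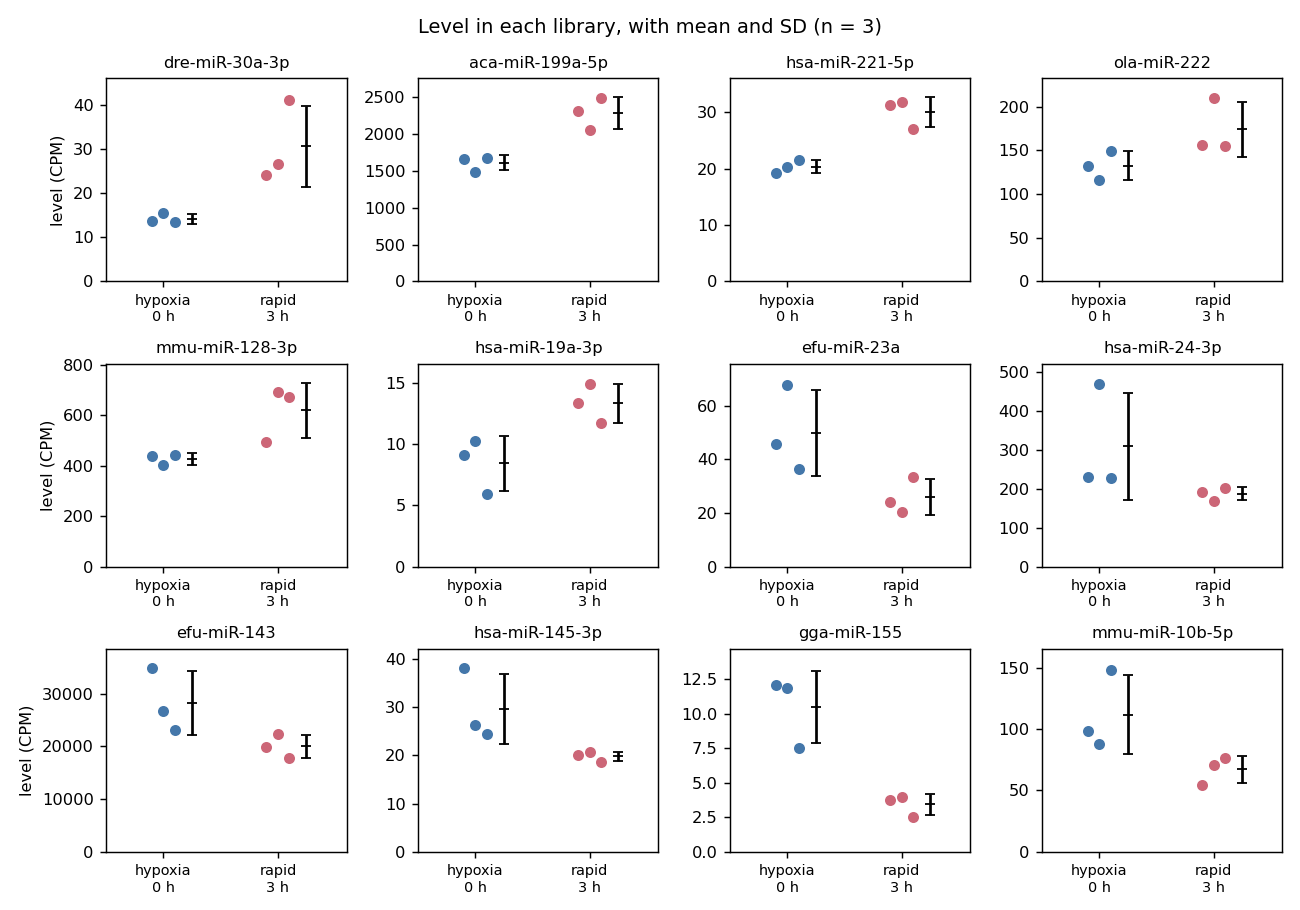
Level in CPM of 12 entries whose groups do not overlap, in the 3 hypoxia 0 h libraries (blue) and the 3 rapid reoxygenation 3 h libraries (red), with the mean and SD of each group in black. In dre-miR-30a-3p the rapid libraries lie between 24.1 and 41.3 CPM, above the hypoxia libraries at 13.5 to 15.5 CPM, and in gga-miR-155 they lie below.

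The miRNAs best known to respond to low oxygen did not pass the test. From the precursor of the mammalian hypoxia miRNA miR-210, only the 5p entry dre-miR-210-5p is described here, and not the 3p arm. The levels of dre-miR-210-5p were 13.7, 10.5 and 13.8 CPM at hypoxia 0 h and 13.7, 24.5 and 17.4 CPM at rapid reoxygenation 3 h. The groups overlapped through rapid library 1, and the log2 difference of dre-miR-210-5p was 0.48 ± 0.34 (SE), with a 95% interval of -0.22 to 1.19, and 0.27 without rapid library 2. For dre-miR-462 the levels were 273, 445 and 242 CPM at hypoxia 0 h and 342, 212 and 171 CPM at 3 h, a log2 difference of -0.41 ± 0.40 (SE), or -0.15 without hypoxia library 2. Its partner in the fish cluster, ssa-miR-731-5p, had almost equal means of 44.8 ± 8.94 and 44.8 ± 12.1 CPM (SD, n = 3), with a log2 difference of -0.01 and a 95% interval of -0.83 to 0.80. The list of hypoxia-responsive miRNAs had 14 of 18 members tested, 7 above and 7 below 0, with 0 passing limma and a median of 0.00, against -0.02 over all entries. Its lowest members were miR-155, miR-23a and miR-24, described above, and its largest positive differences were in bta-miR-27a-3p at 0.55 ± 0.42 (SE) and in dre-miR-210-5p. The abundant dre-miR-21, known from injury and fibrosis, stood at 10652 ± 3410 and 9526 ± 750 CPM (SD, n = 3), a log2 difference of -0.12 ± 0.24 (SE).

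**Figure D3:**
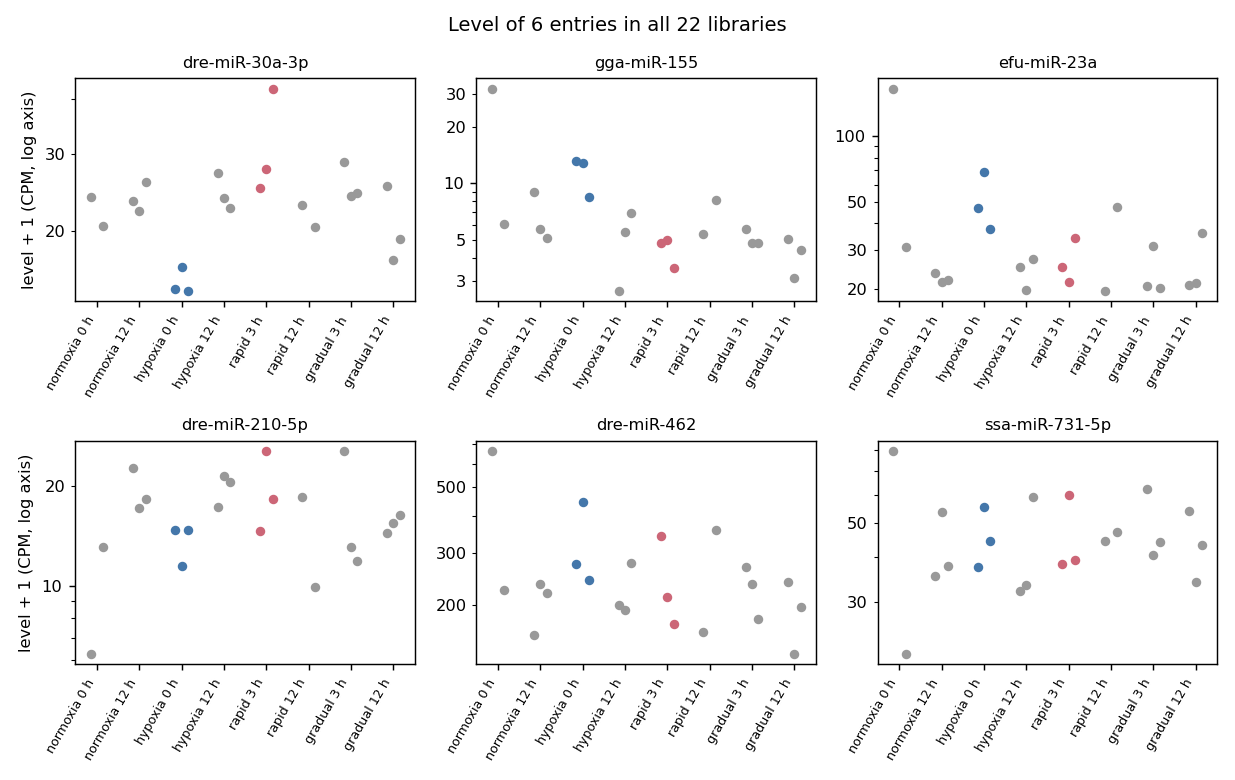
Level plus 1 (CPM, log axis) of 6 entries in all 22 libraries, 1 point per library, with hypoxia 0 h in blue, rapid reoxygenation 3 h in red and the other 6 groups in grey. In dre-miR-30a-3p the hypoxia 0 h libraries are the lowest of the series, at 13.5 to 15.5 CPM, while in dre-miR-210-5p, dre-miR-462 and ssa-miR-731-5p both groups lie within the range of the others.

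The list of miRNAs that in mammals act on NRF2 or KEAP1 had 7 of 9 members tested, 6 above and 1 below 0, with 0 passing limma and a median of 0.13. Without hypoxia library 3 that median was -0.09. For xla-miR-34a-5p, a target of p53, the levels were 16.9, 12.1 and 6.17 CPM at hypoxia 0 h and 11.8, 11.0 and 16.8 CPM at rapid reoxygenation 3 h. For ccr-miR-200a, which in mammals targets KEAP1, they were 1638, 1348 and 940 CPM against 1370, 1579 and 1266 CPM. The groups of both overlapped, and the log2 differences were 0.24 ± 0.40 for xla-miR-34a-5p and 0.13 ± 0.45 for ccr-miR-200a (SE). The erythroid miR-144, which acts on NRF2 in mammals, had a log2 difference of 0.01 ± 0.39 (SE, ola-miR-144).

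None of the most abundant liver miRNAs passed the test, and most of their intervals were narrow. The top entry oha-miR-122-5p held 80997, 74116 and 90170 CPM at hypoxia 0 h and 84920, 91538 and 93473 CPM at rapid reoxygenation 3 h, a log2 difference of 0.14 ± 0.19 (SE). Its 95% interval was -0.26 to 0.54. For dre-miR-22a-3p, abundant in liver and other tissues, the means were 22647 ± 1476 and 23602 ± 1126 CPM (SD, n = 3), a log2 difference of 0.06 with a 95% interval of -0.25 to 0.37. The log2 difference was 0.06 ± 0.22 for ola-miR-100, 0.12 ± 0.16 for efu-miR-26a and -0.26 ± 0.36 for ola-miR-192-5p (SE), a miRNA of liver, gut and kidney epithelium. The hepatocyte list had 7 of 8 members tested, 4 above and 3 below 0, with a median of 0.06 and 0 passing limma. Under quantile normalization its median was -0.04. The list of lipid and glucose metabolism had 12 of 14 tested, 9 above and 3 below 0, with a median of 0.15 and 0 passing limma.

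Markers of blood cells and of other tissues were compared in the same way. The abundant dre-miR-146a, induced by inflammatory signalling through NF-kB in mammals, stood at 17530, 68553 and 21994 CPM at hypoxia 0 h and 26148, 25624 and 30628 CPM at rapid reoxygenation 3 h. Hypoxia library 2 was more than double every other of the 6 libraries, the groups overlapped, and the log2 difference of dre-miR-146a was -0.12 ± 0.48 (SE). The leukocyte list had 6 of 7 members tested, 1 above and 5 below 0, with a median of -0.21 and 0 passing limma. Its summed level was 19380 to 70152 CPM at hypoxia 0 h and 27393 to 32332 CPM at 3 h. Besides miR-155, its members overlapped between groups, among them the pan-leukocyte pbv-miR-142-5p at 27.8 ± 7.46 and 22.3 ± 4.45 CPM and the myeloid hsa-miR-223-3p at 8.70 ± 2.45 and 6.55 ± 1.49 CPM (SD, n = 3). The part of leukocyte number in the level of miR-155 was not tested.

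The erythroid list had 3 of 3 members tested, 1 above and 2 below 0, with a median of -0.08 and 0 passing limma. Its main member chi-miR-451-5p stood at 4590, 2614 and 4737 CPM at hypoxia 0 h and 2970, 2808 and 4654 CPM at rapid reoxygenation 3 h, and the log2 difference was -0.18 ± 0.51 (SE). The third member, dre-miR-2188-5p, had 145 ± 31.6 and 135 ± 20.7 CPM (SD, n = 3). The summed level of the erythroid list was 2784 to 5021 CPM at hypoxia 0 h and 3039 to 4858 CPM at 3 h, so the ranges nearly coincided.

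Markers of the exocrine pancreas, which in many fishes lies within or beside the liver, were present in both groups. The list had 5 of 5 members tested, all 5 above 0, with a median of 0.11 and 0 passing limma. Its defining member hsa-miR-217-5p held 892, 1169 and 1544 CPM at hypoxia 0 h and 1486, 1053 and 1294 CPM at rapid reoxygenation 3 h, a log2 difference of 0.11 ± 1.52 (SE). The SE is from the fit over all groups, where hsa-miR-217-5p ranged down to 5.35 CPM (gradual reoxygenation 3 h) and 7.78 CPM (rapid reoxygenation 12 h). Of the entries that stand for the members of this list, only that of miR-216a was separate between groups, with gga-miR-216a at 13.0 ± 2.41 and 21.5 ± 7.44 CPM (SD, n = 3). The member miR-375 was given by the low hsa-miR-375-3p, whose groups overlapped. The less abundant dre-miR-375 went the other way with separate groups, at 1.467 to 6.697 CPM at hypoxia 0 h and 0.2202 to 0.9697 CPM at 3 h. The entry bfl-miR-375 was also lower with separate groups, so the sign of miR-375 depended on the entry. The summed level of the list was 2410 to 3568 CPM at hypoxia 0 h and 2656 to 3567 CPM at 3 h. The striated muscle list had 3 of 6 members tested, 1 above and 2 below 0, with a summed level of 14.4 to 33.9 CPM and 7.43 to 14.4 CPM. Its median was -0.49, and mdo-miR-206 reached 29.7 CPM in hypoxia library 3 alone. The neural list had 3 of 5 tested, 2 above and 1 below 0, with a median of 0.16. The summed level of these 3, 412 to 454 CPM and 506 to 703 CPM, was nearly all miR-128. Entries under other family names were not counted in these lists. Among them were dre-miR-153b-3p, at a mean of 175 CPM over the 6 libraries, and the muscle entry mmu-miR-1b-5p, at 80.7 CPM. The groups of both overlapped, with log2 differences of 0.18 and -0.69. No member of the striated muscle or neural lists passed limma.

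The list of the vessel and stroma miRNAs had all 10 members tested, 7 above and 3 below 0, with a median of 0.11 and 0 passing limma. Those below 0 were miR-143, miR-145 and miR-214. The epithelial miR-200 list, whose members hold cells in the epithelial state, had 5 of 5 tested, 4 above and 1 below 0, with a median of 0.09. In the list named for kidney and gut epithelium, which shares miR-192 and miR-194 with the hepatocyte list, all 5 of 5 members lay below 0. Their median was -0.23. Of these members, miR-203a and miR-205 were planned as markers of epithelium without a tissue, so the name does not hold for them. The lowest member was oni-miR-203a at -0.96 ± 0.77 (SE). It stood at 48.0 CPM in hypoxia library 3 and at 11.1 CPM or less in the other 5 libraries. No member of the miR-200 or the kidney and gut list passed limma.

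Among miRNA families, let-7 members were mostly lower and miR-17-92 members mostly higher at rapid reoxygenation 3 h, without passing limma. Of 12 let-7 members tested, 10 lay below 0 and 2 above, with a median of -0.24, against -0.02 over all entries. The abundant cel-let-7-5p had 8560 ± 907 CPM at hypoxia 0 h and 6967 ± 1932 CPM at 3 h (SD, n = 3), a log2 difference of -0.33 ± 0.29 (SE). Several let-7 members are near copies, such as ola-let-7e and gga-let-7k-5p with log2 differences of -0.24 each, so the 12 are not separate measurements. The exceptions were dre-let-7j and gga-let-7i, the last of which owed its positive sign to 394 CPM in rapid library 3 against 181 to 217 CPM in the other 5 libraries. For let-7g and let-7e the sign depended on the entry. The member let-7g was given by dre-let-7g at -0.13, but xtr-let-7g was higher with separate groups, at 0.36 ± 0.19 (SE). At a mean of 522 CPM, xtr-let-7g had nearly the levels of dre-let-7j. The low bta-let-7e was also positive, at 0.72 with overlapping groups.

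The miR-17-92 list, whose members promote proliferation in mammals, had 14 of 18 members tested, 12 above and 2 below 0, with a median of 0.22 and 0 passing limma. The members cpi-miR-17-5p and dre-miR-17a-5p are near copies, with log2 differences of 0.22 each, so the 14 are not separate measurements. For hsa-miR-20a-5p the levels were 174, 192 and 150 CPM at hypoxia 0 h and 265, 250 and 175 CPM at rapid reoxygenation 3 h, a log2 difference of 0.40 ± 0.26 (SE). Rapid library 3 lay within the hypoxia range there, and below it for hsa-miR-19b-3p, with 122.8, 110.4 and 121.6 CPM against 185, 173 and 105 CPM. The summed level of the list was 1447 to 1560 CPM at hypoxia 0 h and 1352 to 1918 CPM at 3 h. With TMM factors and with quantile normalization the medians of let-7 (-0.25 and -0.15) and of miR-17-92 (0.21 and 0.30) kept their signs. Leaving out 1 library at a time, the let-7 median ran from -0.33 without rapid library 1 to -0.10 without rapid library 3, and the miR-17-92 median from 0.09 to 0.43 on leaving out the same libraries.

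The other families had list medians between -0.13 and 0.24, with 0 members passing limma. The miR-30 list had 5 of 5 members tested and a median of 0.18, with hsa-miR-30d-5p at 1566 ± 80.0 and 1772 ± 62.2 CPM (SD, n = 3). The list of miR-10 and its relatives miR-99, miR-100 and miR-125 had 10 of 10 tested, 3 above and 7 below 0, with a median of -0.10. The miR-29 list, known for targeting collagens, had 4 of 4 tested and a median of -0.13, or 0.00 when all rows of a family name and arm were summed. The miR-34 list had 2 of 3 tested, which are near copies, with a median of 0.24, and the miR-15 and miR-16 list 4 of 8, with a median of -0.01. On leaving out 1 library at a time, the median took both signs in the hypoxia-responsive (-0.07 to 0.06), NRF2 and KEAP1 (-0.09 to 0.29), hepatocyte (-0.02 to 0.13), erythroid (-0.27 to 0.05) and lipid and glucose lists (-0.14 to 0.26). It also did so in the miR-200 (-0.11 to 0.29), miR-29 (-0.34 to 0.07), miR-34 (-0.13 to 0.53) and miR-15 and miR-16 lists (-0.18 to 0.15). The members and lists were not chosen independently of these data, and the lists share some members.

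**Figure D4:**
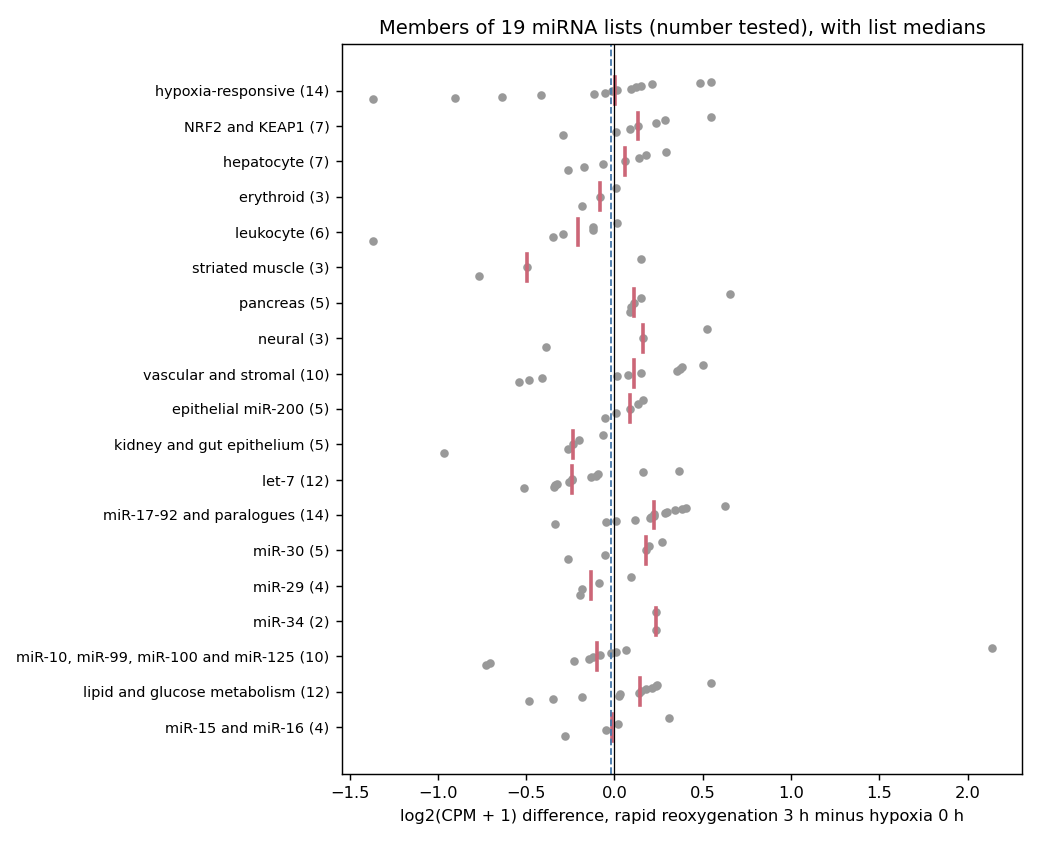
Difference between rapid reoxygenation 3 h and hypoxia 0 h on the log2(CPM + 1) scale for the tested members of 19 lists, 1 grey point per member, with the list median as a red bar and the median of all 542 entries as a dashed blue line. The medians run from -0.49 for striated muscle to 0.24 for miR-34, and no point passed limma.

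The largest positive differences were in entries led by rapid library 3. In 13 entries with a mean of at least 10 CPM, 1 of the 6 libraries held at least 4 times the level of each of the other 5, and in 6 of these 13 that was rapid library 3. Similar entries among the 13 can take the same reads. For hsa-miR-10a-5p the levels were 4.91, 8.92 and 0.715 CPM at hypoxia 0 h and 0.724, 21.5 and 219 CPM at rapid reoxygenation 3 h. The log2 difference of hsa-miR-10a-5p was 2.14 ± 1.11 (SE, limma unadjusted p = 0.0705, adjusted p = 0.981; 0.0198 to 0.9997 under the alternatives). Without rapid library 3 it was 0.42, and without rapid library 1 it was 3.92. Its groups overlapped, since rapid library 1 was as low as the lowest hypoxia library. For hsa-miR-30a-5p the levels were 4.01, 6.18 and 4.51 CPM at hypoxia 0 h and 2.23, 24.1 and 139 CPM at 3 h, a log2 difference of 1.95 ± 0.89 (SE, limma unadjusted p = 0.0425, adjusted p = 0.981; 0.00687 to 0.9997 under the alternatives). Without rapid library 3 the difference of hsa-miR-30a-5p was 0.63, and without rapid library 1 it was 3.34. In both entries rapid library 2 was also above all hypoxia libraries and rapid library 1 was not. Among the other 16 libraries hsa-miR-10a-5p reached at most 6.45 CPM, and hsa-miR-30a-5p reached 41.2 CPM in 1 library of gradual reoxygenation 12 h.

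The count of calls moved when a library was left out. Without rapid library 1, 7 entries passed limma with Benjamini-Hochberg adjustment, namely dre-miR-30a-3p and the 6 entries of miR-10, miR-10a and miR-30a-5p that rapid library 3 leads. Those 6 are not separate measurements, since similar entries can take the same reads. For instance, hsa-miR-30a-5p and cpi-miR-30a-5p had means of 29.953 and 29.947 CPM over the 6 libraries. In the fit without hypoxia library 2, 1 entry passed, novel_487 (adjusted p = 0.0311). Without the normoxia 0 h library that stands apart, 2 entries passed, dre-miR-30a-3p and novel_487. In the opposite direction, ssa-miR-194b-5p held 111 CPM in hypoxia library 1 and 0.499 to 3.63 CPM in the other 5, and dre-miR-27e held 635 CPM in hypoxia library 2 against 66.9 to 119 CPM. The log2 differences were -2.29 ± 1.55 for ssa-miR-194b-5p and -0.95 ± 0.74 for dre-miR-27e (SE). Rapid library 3 also held more than double the level of each of the other 5 libraries in 16 of the 542 entries. No such count was made for the other 5. Rapid library 3 was the highest of the 6 libraries in 85 entries, against 77 to 110 entries for each of the others. It was the lowest of the 6 in 128 entries, against 62 to 104 entries for each of the others.

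**Figure D5:**
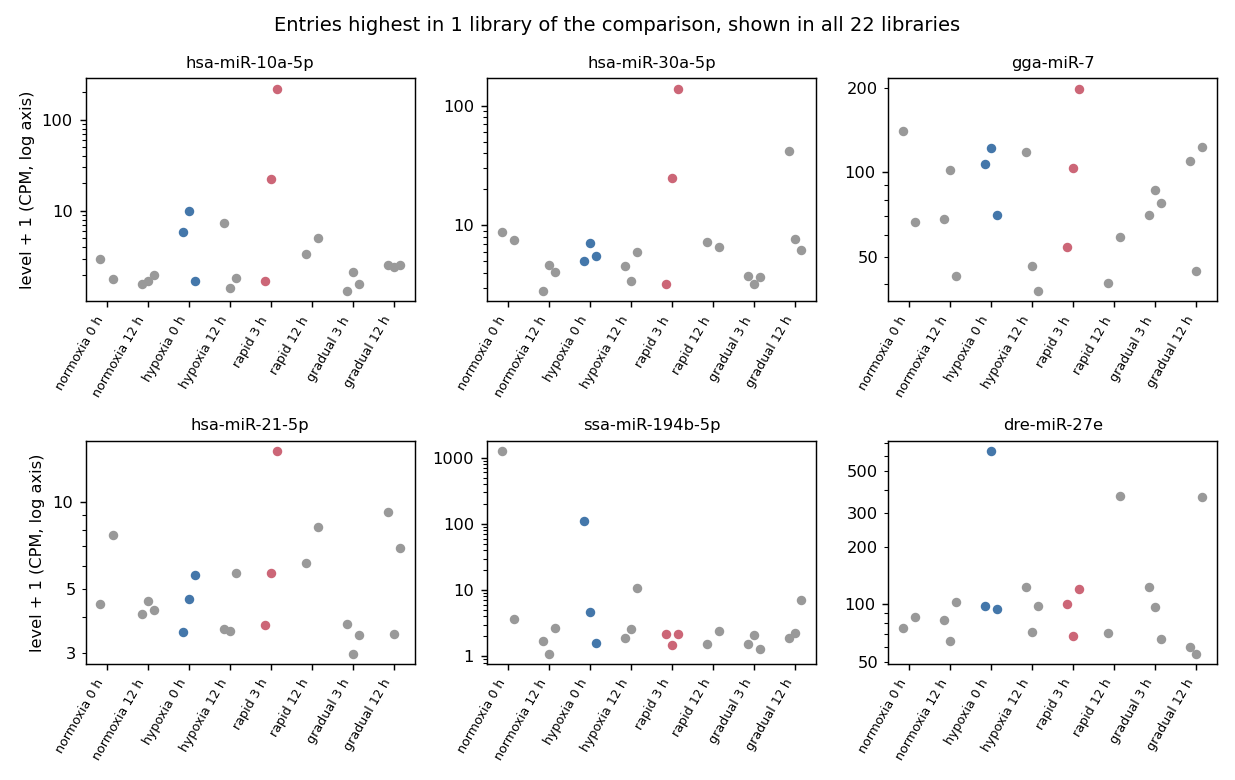
Level plus 1 (CPM, log axis) of 6 entries that are highest in 1 of the 6 compared libraries, in all 22 libraries, 1 point per library, with hypoxia 0 h in blue, rapid reoxygenation 3 h in red and the other 6 groups in grey. In hsa-miR-10a-5p rapid library 3 stands at 219 CPM and rapid library 2 at 21.5 CPM, while the other 16 libraries reach at most 6.45 CPM.

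Of the 23 predicted miRNAs tested, 0 passed limma. The most abundant, novel_68, held 31.3, 28.9 and 34.1 CPM at hypoxia 0 h and 34.0, 33.2 and 36.5 CPM at rapid reoxygenation 3 h, a log2 difference of 0.14 ± 0.23 (SE). For novel_90 the log2 difference was 0.56 ± 0.29 (SE) with overlapping groups. The level of novel_493 was 107 CPM in rapid library 2 and 7.58 to 22.5 CPM in the other 5 libraries. For novel_55 the log2 difference was -0.58 ± 0.41 (SE), also with overlap.

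Rapid reoxygenation 3 h was also set beside gradual reoxygenation 3 h and rapid reoxygenation 12 h. Both comparisons reuse the 3 rapid reoxygenation 3 h libraries of the main comparison. Against gradual reoxygenation at the same hour, 0 of 542 entries passed limma and 48 had an unadjusted p under 0.05 (8.86%), while edgeR called 0 and DESeq2 14. There the erythroid chi-miR-451-5p was at 11684, 12623 and 9316 CPM in the gradual libraries, all above the 2808 to 4654 CPM of the rapid libraries, with a log2 difference of -1.71 ± 0.51 (SE, limma adjusted p = 0.262). For xla-miR-34a-5p the gradual libraries held 34.5, 47.3 and 39.8 CPM and the rapid ones 11.8, 11.0 and 16.8 CPM, a log2 difference of -1.56 ± 0.40 (SE, limma adjusted p = 0.199). The entry with the smallest p, dre-miR-153b-3p, held 136, 153 and 156 CPM in the rapid libraries and 44.3, 3.65 and 1.66 CPM in the gradual ones, a log2 difference of 4.17 ± 1.05 (SE, limma adjusted p = 0.199). Against hypoxia 0 h the same entry differed by 0.18 ± 1.05 (SE).

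For entries whose levels were separate between rapid reoxygenation 3 h and hypoxia 0 h, the values against gradual reoxygenation were as follows. The log2 difference between rapid and gradual reoxygenation at 3 h was 0.27 ± 0.23 for dre-miR-30a-3p, -0.22 ± 0.47 for gga-miR-155, 0.07 ± 0.21 for aca-miR-199a-5p and 0.16 ± 0.47 for efu-miR-23a (SE). Between rapid reoxygenation 12 h, with 2 libraries, and 3 h, 0 of 542 entries passed limma and 10 had an unadjusted p under 0.05 (1.85%), while edgeR called 0 and DESeq2 3. From 3 h to 12 h the log2 difference was -0.51 ± 0.25 for dre-miR-30a-3p and 0.60 ± 0.53 for gga-miR-155 (SE).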

How the data were processed

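Small RNA libraries from liver were sequenced as single-end reads of 50 bases, per the labels' protocols, after extraction with Trizol. Bowtie is listed, with no version, in the submitters' processing notes. The sources used here do not give the reference, its annotation or the counting tool. The deposited values are CPM made by the authors, although the table calls them TPM: each column has the same sum and every value is a whole multiple of 1 read within 0.01, so reads could be recovered. Columns were joined to the labels' groups by time, number and libraries per group, since the letters in the column names are not explained there, and every comparison rests on this.

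limma 3.58.1 in R 4.3.3 was fitted to log2(CPM + 1) over 22 libraries in 8 groups, using a mean-variance trend. Benjamini-Hochberg adjustment ran over 542 entries, at a threshold of 0.05. SEs come from this fit. The recovered reads were also tested with edgeR 4.0.16 and DESeq2 1.42.0, figures were drawn with matplotlib 3.10.9, and the test was tested on simulated data (seed 101). The simulated entries were independent and had the same spread setting, unlike the real entries, so the simulation does not show how the test behaves on these data.

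Names were drawn from the 20 entries with the smallest p and a mean of at least 10 CPM, the 10 most abundant family names, the extremes of the lists, a fixed set of miRNAs and the 5 largest predicted entries. Most near copies of a named entry, and novel_57 (log2 difference 0.22), are not described. Entries whose groups do not overlap, those led by 1 library, and novel_487 and dre-miR-153b-3p, were chosen after their values were seen. A list member is given by the most abundant entry with exactly its family name, of either arm. The lists therefore mix 5p and 3p arms, and miR-30a, for example, is given by hsa-miR-30a-3p. Entries with a further or missing letter, such as dre-miR-153b-3p, dme-miR-133-3p and hsa-miR-103a-3p, therefore do not enter the counts, medians and summed levels of the lists. The members and the 19 lists, written from general knowledge, were chosen with earlier results of these data known. Same-numbered libraries of the 2 groups did not deviate together (Pearson r 0.038, -0.139 and -0.254), and libraries of unequal number gave r from -0.162 to 0.271. No pairing by number was seen, but so few correlations cannot exclude one. No 2 libraries of a group agreed within sampling noise in a chi-square test on recovered reads (chi-square per degree of freedom 653 to 3902). That test takes entries as separate counts, while similar entries can take the same reads, so no conclusion is drawn from it. No table of miRNA sequences was used here.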

Additional observations from a re-analysis of the deposited data

How the results depend on the processing

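The count of entries passing between rapid reoxygenation 3 h and hypoxia 0 h was 0 as reported and 0 to 7 when 1 library of either group was left out, 2 without normoxia 0 h library 2 and 7 with DESeq2. Against gradual reoxygenation 3 h it was 0, with 0 to 6 on leaving out a library, 3 with a pseudocount of 10 and 14 with DESeq2, and between rapid reoxygenation 12 h and 3 h it was 0, with 0 to 1 on leaving out a library, 1 without a filter and 3 with DESeq2. Leaving out rapid library 1 gave the highest count each time, and the cause was not tested. With the replicate number as a block, 0 entries passed with all 8 groups in the fit and 0 with the 6 libraries alone.

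For 47 named entries, 1033 of 1077 values kept their direction and side of the threshold, 13 passed it in addition and 31, in 12 entries, reversed, nearly all of them from log2 differences close to 0. Leaving out the miR-122 entries moved the median over all entries from -0.02 to 0.07. Quantile normalization gave 0.22 for dre-miR-146a, 0.33 for abu-miR-146, -0.036 for dre-miR-22a-3p and 0.13 for ssa-miR-731-5p, which was 0.00998 with DESeq2 size factors, 0.097 without miR-122 and 0.021 with DESeq2. For ola-miR-144 it was -0.0015 with TMM factors and -0.018 with edgeR, for dre-miR-2188-5p 0.029 without miR-122, and for novel_493 0.12 with a pseudocount of 10, 0.013 without miR-122, 0.96 with edgeR and 0.98 with DESeq2. Leaving out a library gave -0.50 to 0.48 for dre-miR-146a and for abu-miR-146, -0.10 to 0.15 for ola-miR-100, -0.22 to 0.13 for ssa-miR-731-5p, -0.22 to 0.21 for ola-miR-144, -0.27 to 0.050 for dre-miR-2188-5p, -0.29 to 0.13 for dre-miR-21, -0.087 to 0.31 for hsa-miR-217-5p, -0.086 to 0.31 for ccr-miR-200a, -0.13 to 0.53 for xla-miR-34a-5p and -1.30 to 0.53 for novel_493. The causes were not tested. At these depths a level under 0.0936 to 0.121 CPM could not be told from 0.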
